A study of Mus musculus with 8 samples.

Results

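The gene set described here is a group of 10 immediate early genes: Btg2, Fos, Fosb, Jun, Junb, Egr1, Ier2, Atf3, Zfp36 and Dusp1. They were found by gene symbol, each symbol matched 1 row, and they make up 10 of the 55573 genes in the deposited count table. The tissue was mouse posterior trunk, taken at embryonic day 9.5 behind a cut between somites 12 and 13, and its poly(A) RNA was sequenced as 8 libraries. All embryos were C57BL/6 and came from crosses of parents heterozygous for a knockout allele of Prtg, the gene of protogenin, a cell-surface receptor of the immunoglobulin superfamily. There were 2 libraries labelled wild type (WT), 3 labelled Prtg+/- (Het) and 3 labelled Prtg-/- (KO), with no other treatment named, and n is 2, 3 and 3 throughout. The sources used here give neither the part of Prtg that the allele removes, nor litters, nor any pooling of embryos, and the p-values cover only differences among these libraries, which may be technical.

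Immediate early genes are transcribed within minutes of a growth factor, stress or injury signal, without new protein synthesis, when kinases act on factors such as SRF with its ternary complex partners and CREB. Their mRNAs are short-lived, and several of their products end the response again. Handling and dissociation of tissue are among the known triggers. In the set, Fos, Fosb, Jun and Junb encode subunits of the transcription factor AP-1, Atf3 a related stress-induced factor and Egr1 a zinc finger transcription factor, while Ier2 encodes a small nuclear protein. The other 3 encode brakes: Btg2 an antiproliferative protein that recruits the CCR4-NOT deadenylase to mRNAs and is a target of p53, Zfp36 a protein that binds AU-rich elements and speeds mRNA decay, and Dusp1 a phosphatase that inactivates MAP kinases.

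The promoters of Btg2, Fos, Fosb and Dusp1 are shown because the results turn on these genes, the first as the gene called in KO and the others as those in which 1 Het library (Het 1-1) passed Dixon's criterion for an outlying value among the 5 WT and Het libraries. Each window runs from 250 bases before to 50 bases after the RefSeq transcription start (GRCm38.p6, 8 of the 10 genes matched) and is written 5′ to 3′ on the strand of the gene. Capitals mark the cAMP response element TGACGTCA, its core TGACG and the TATA box TATAAA, where a search of both strands found them on the strand shown.
Btg2 (chr1:134079106-134079405, minus strand): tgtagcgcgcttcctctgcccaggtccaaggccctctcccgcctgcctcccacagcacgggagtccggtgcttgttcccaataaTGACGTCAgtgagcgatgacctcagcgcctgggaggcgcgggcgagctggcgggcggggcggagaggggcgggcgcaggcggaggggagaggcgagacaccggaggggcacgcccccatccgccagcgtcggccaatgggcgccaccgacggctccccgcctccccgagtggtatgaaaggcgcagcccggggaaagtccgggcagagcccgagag
Fos (chr12:85473640-85473939, plus strand): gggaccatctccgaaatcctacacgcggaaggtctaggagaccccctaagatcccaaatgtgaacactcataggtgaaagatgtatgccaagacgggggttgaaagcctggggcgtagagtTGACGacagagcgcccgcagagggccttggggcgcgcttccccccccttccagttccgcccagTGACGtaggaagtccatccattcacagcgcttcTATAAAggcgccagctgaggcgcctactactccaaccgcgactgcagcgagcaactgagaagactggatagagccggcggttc
Fosb (chr7:19309996-19310295, minus strand): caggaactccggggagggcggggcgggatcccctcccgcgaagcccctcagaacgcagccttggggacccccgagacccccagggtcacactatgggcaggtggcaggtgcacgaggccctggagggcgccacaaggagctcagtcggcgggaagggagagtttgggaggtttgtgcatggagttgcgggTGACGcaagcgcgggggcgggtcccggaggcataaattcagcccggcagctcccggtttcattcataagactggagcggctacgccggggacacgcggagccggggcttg
Dusp1 (chr17:26508423-26508722, minus strand): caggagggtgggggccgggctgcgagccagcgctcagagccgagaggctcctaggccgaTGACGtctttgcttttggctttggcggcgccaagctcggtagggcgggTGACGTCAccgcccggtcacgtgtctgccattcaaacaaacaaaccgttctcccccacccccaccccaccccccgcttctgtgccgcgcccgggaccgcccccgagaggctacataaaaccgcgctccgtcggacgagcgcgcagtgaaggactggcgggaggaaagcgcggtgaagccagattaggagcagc

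The full cAMP response element, the letters that CREB binds, was found in 2 of the 8 windows, Btg2 and Dusp1, and in 1.79% of the 32851 promoter windows of the table. In Btg2 it starts 166 bases before the transcription start and in Dusp1 143 bases before it. The core, which each full element also holds, was found in 6 of 8 windows (Atf3, Btg2, Dusp1, Fos, Fosb and Junb) against 20.8% of all windows. The CArG box, the SRF site, was matched in 1 window, that of Zfp36, against 1.63% of all windows. TATAAA was found in Fos and Junb, against 13.6% of windows, 33 bases before the start in Fos and directly at the start in Junb. The GC box GGGCGG was in 7 of 8 windows against 35.7%. The AP-1 site TGANTCA (7.81% of all windows), the EGR site GCGTGGGCG (0.612%) and a single unit of the p53 site (8.36%) matched none of the 8. A match describes letters in a window and is not evidence of binding, and a window without a match says nothing of the factor.

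**Figure D1:**
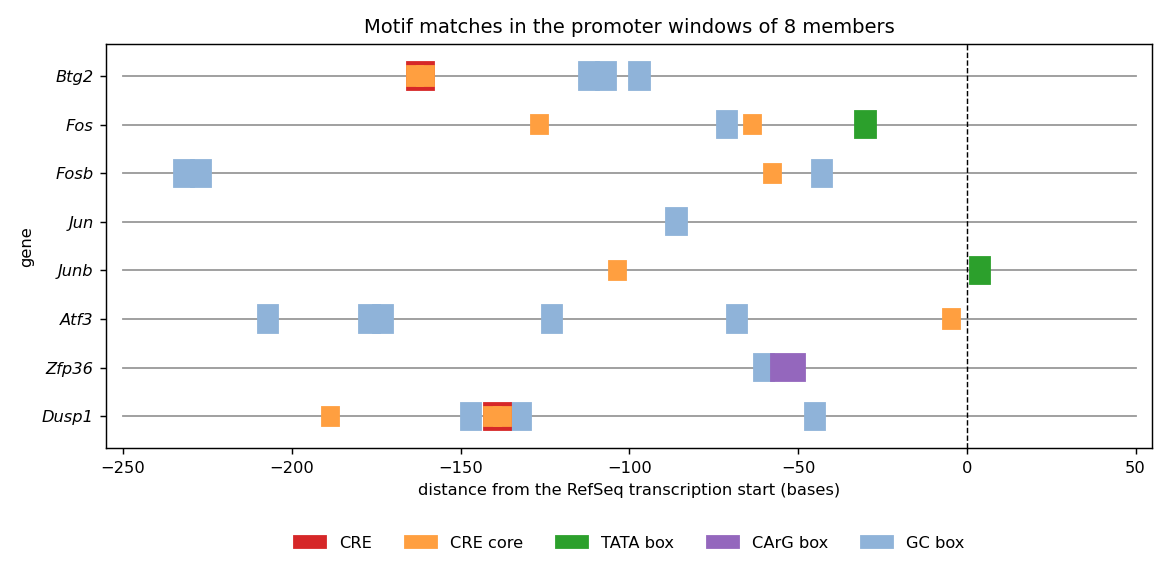
Motif matches along the promoter windows of 8 of the genes, with distance from the RefSeq transcription start in bases on the x axis and 1 gene per row. Coloured boxes mark matches on either strand. The full cAMP response element appears only in the Btg2 and Dusp1 rows of these 8.

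Short-lived mRNAs often carry AU-rich motifs in the 3′ UTR, which proteins such as that of Zfp36 bind. The pentamer ATTTA occurred at a median of 2.89 per kb of 3′ UTR in the 10 genes and 1.20 per kb in 13752 tested genes with a 3′ UTR. The longer motif TTATTTATT, which contains the pentamer, was present in 3 of the 10 (Fos, Zfp36 and Dusp1) and in 7.32% of the 13752. One such site per gene is shown with its flanks, in the sense of the mRNA and in capitals at the motif.
Fos (3′ UTR, GRCm38): tgttttcaatTTATTTATTaagatggatt
Zfp36 (3′ UTR, GRCm38): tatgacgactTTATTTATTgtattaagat
Dusp1 (3′ UTR, GRCm38): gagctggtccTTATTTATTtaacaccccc
The 3′ UTR of Btg2 had 5 pentamers over 2199 bases and no TTATTTATT, and that of Ier2 had 0 pentamers over 755 bases. No measurement here bears on mRNA stability.

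The libraries held 16874860 to 17511964 reads counted to genes, and 16262 genes passed the filter on low counts. Levels are given as CPM, counts per library scaled to a common total with TMM factors. Fold changes are log2 values ± SE from the quasi-likelihood test of edgeR, and adjusted p-values are Benjamini-Hochberg values over all tested genes. A gene was called at an adjusted p below 0.05. KO 1-3 stood apart: of 15775 genes with a mean of at least 0.5 CPM, 115 were at least 2 times as high there as in any other library (in CPM + 0.25), against 0 to 5 in each of the other 7. All 12 fixed marker genes of posterior trunk tissue were tested and so present. The Prtg level was 317 and 385 CPM in WT, 240 to 281 CPM in Het and 237 to 268 CPM in KO, so its count did not separate KO from Het. Y-linked genes were high in WT 2-1, Het 2-5, KO 2-2 and KO 2-3 (144 to 162 CPM summed) and at most 0.410 CPM in the others. In RNA from whole tissue, fewer cells of a type and less RNA per cell cannot be told apart.

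Btg2 (ENSMUSG00000020423, GRCm38 chromosome 1, 134075170 to 134079120, minus strand) was the gene of the set called lower in KO. It lay at 50.1 CPM in WT 1-2 and 62.6 CPM in WT 2-1, at 43.0, 56.8 and 57.0 CPM in Het 1-1, Het 2-4 and Het 2-5, and at 26.9, 34.0 and 28.8 CPM in KO 1-3, KO 2-2 and KO 2-3. All 3 KO libraries were below all 5 others. The WT and Het libraries overlapped, and Het 1-1 was the lowest of the 5. Against the mean of WT and Het, Btg2 fell by 0.86 ± 0.12 in KO (adjusted p = 0.0159), to 0.551 times that mean. Within column set 1 (the first number of the library names, whose meaning is not stated) the log2 difference from the WT and Het libraries was -0.78, and within set 2 it was -0.90.

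The pairwise comparisons with KO share the same 3 KO libraries. Btg2 was called in KO minus Het (-0.81 ± 0.13, adjusted p = 0.0445) and missed the threshold in KO minus WT (-0.91 ± 0.14, adjusted p = 0.0561). With column set as a term in the fit, KO minus WT passed it (-0.96, adjusted p = 0.00249). Het minus WT was -0.11 ± 0.14 (adjusted p = 1.00). The KO minus Het call was lost when any 1 of the 8 libraries was left out (adjusted p 0.0516 to 0.234), with log2 values of -0.93 to -0.74. The call against the mean of WT and Het was lost without WT 2-1 (adjusted p = 0.0508) and without Het 2-4 (adjusted p = 0.0621), and it held without KO 1-3 (-0.79, adjusted p = 0.0227).

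Of the 9 genes of the set that passed the filter, Btg2 was the 1 called in KO minus Het, where 0.191% of all genes were called, and the 1 called against the mean of WT and Het, where 0.332% were. The set was chosen with earlier results of these data known. Its shares beside those of all genes are therefore a description and no test of the set. None of the 9 was called in KO minus WT, where 0.0369% of genes were called. There 1 of the 9 was at an unadjusted p below 0.05, against 1170 of the 16262 tested genes. In KO minus Het 4 of the 9 were, against 1765 of the 16262. In Het minus WT edgeR called 0 of 16262 genes (0%), with 292 at an unadjusted p below 0.05 and 1 called by DESeq2, and 1 of the 9, Fos, was at an unadjusted p below 0.05. The median log2 difference of the 9 was -0.06 in KO minus WT, -0.21 in KO minus Het and -0.15 against the mean of WT and Het, with 6 of 9 below 0 each time. The medians over all tested genes were 0.01 in each of these, with 48.4% to 48.7% of all tested genes below 0. In Het minus WT the median of the 9 was 0.05 and 2 of 9 were below 0, against 49.6% of all tested genes.

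**Figure D2:**
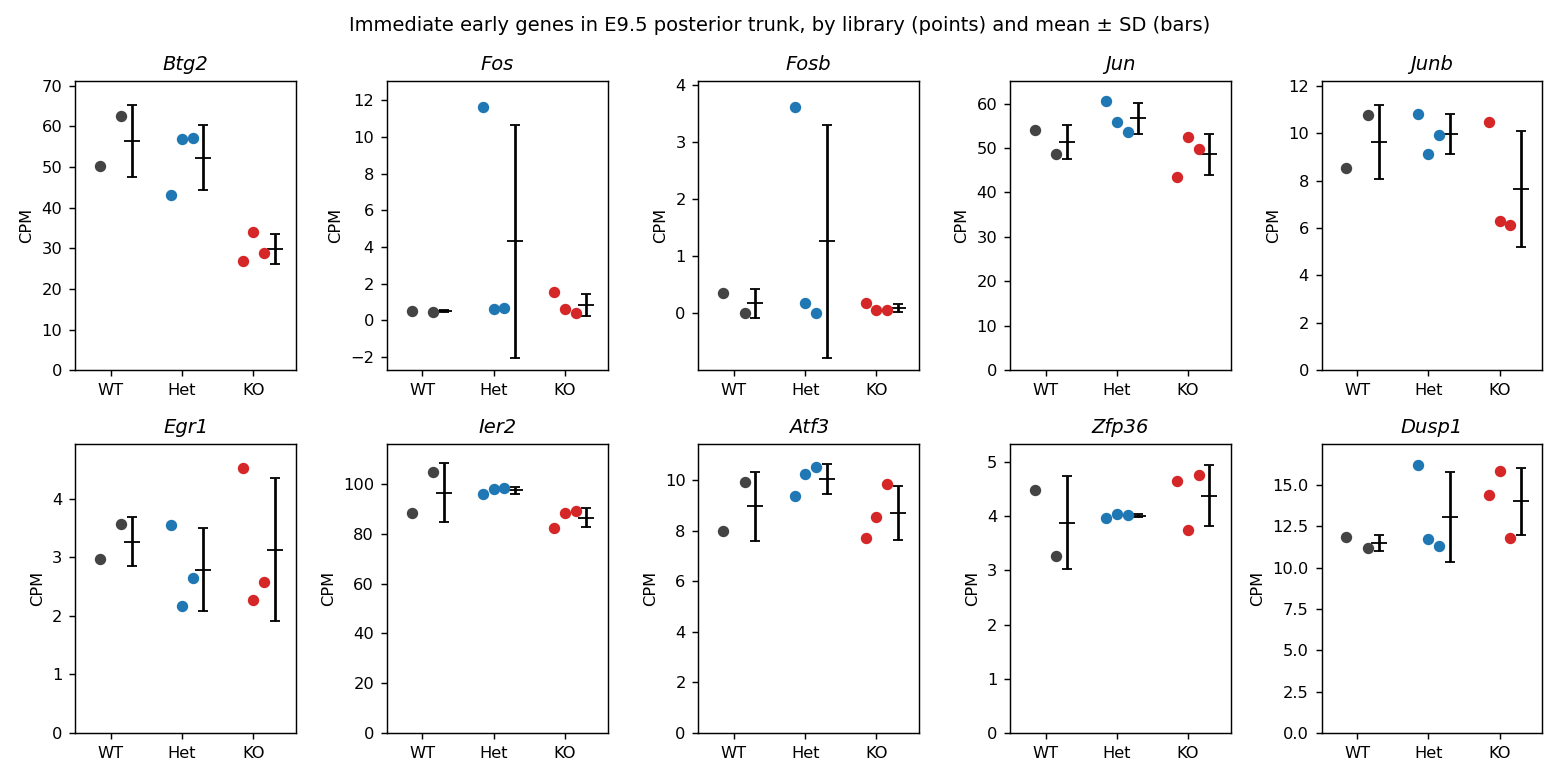
CPM of the 10 genes by genotype, on linear axes with a scale for each gene. Points are libraries in the order of their numbers and bars show the mean ± SD (n = 2, 3 and 3). The 3 KO points of Btg2 lie below the other 5, and 1 Het point lies far above the rest for Fos and Fosb.

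The AP-1 genes Fos and Fosb were low in 7 libraries and high in 1. Fos (ENSMUSG00000021250, chromosome 12, 85473890 to 85477273, plus strand) was at 11.6 CPM in Het 1-1. It was at 0.525 and 0.467 CPM in WT, at 0.585 and 0.690 CPM in the other 2 Het libraries, and at 1.53, 0.585 and 0.401 CPM in KO 1-3, KO 2-2 and KO 2-3. Het 1-1 was 7.60 times the next highest library, KO 1-3, and 19.9 times the median of the other 7. In reads, Het 1-1 had 196 (95% Poisson interval 170 to 225) and KO 1-3 had 26 (17.0 to 38.1), while the remaining 6 had 7 to 12. These intervals cover counting error only.

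Fosb (chromosome 7, 19302696 to 19310051, minus strand) did not pass the filter and has no test in the main fit. It had 61 reads in Het 1-1, 6 in WT 1-2, 3 each in Het 2-4 and KO 1-3, 1 each in KO 2-2 and KO 2-3 and 0 in WT 2-1 and Het 2-5. A count of 0 allows up to 3.69 reads at the upper 95% Poisson limit. Het 1-1, at 3.62 CPM, was thus 10.3 times WT 1-2, the next library. By the rule used above for KO 1-3, chosen after the values of Fos were seen, 5 genes were at least 2 times as high in Het 1-1 as in any other library. They were Fos, Fosb, Klf4, Gm10382 and Snord43, and Klf4, another immediate early transcription factor, was at 3.38 CPM there against 0.919 to 1.52 CPM elsewhere. Fosb reached the mean of 0.5 CPM that the rule asks for only through Het 1-1, being at most 0.350 CPM elsewhere. Its place among the 5 is therefore not independent of that library.

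The genotype comparisons of Fos rest on that library. Fos in Het minus WT was 3.09 ± 1.26 (unadjusted p = 0.0316, adjusted p = 1.00), and 0.36 without Het 1-1. The 3 Het libraries all lay above both WT libraries, and such a lack of overlap held for 18.1% of all tested genes. In KO minus Het it was -2.35 ± 1.00 (adjusted p = 0.437), and without Het 1-1 the sign turned, to 0.39. In KO minus WT it was 0.74 ± 1.40 (adjusted p = 0.934), and -0.012 without KO 1-3.

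Jun (chromosome 4, 95049034 to 95052222, minus strand) was at 54.1 and 48.6 CPM in WT, at 60.5, 55.9 and 53.6 CPM in Het, and at 43.5, 52.6 and 49.8 CPM in KO. The KO libraries were all below the Het libraries, the lowest being KO 1-3, and they overlapped WT. KO minus Het was -0.22 ± 0.09 (adjusted p = 0.404), and -0.15 without KO 1-3. Junb (chromosome 8, 84974484 to 84978718, minus strand) was at 8.52 and 10.7 CPM in WT, at 10.8, 9.13 and 9.94 CPM in Het, and at 10.5, 6.31 and 6.13 CPM in KO 1-3, KO 2-2 and KO 2-3. KO 1-3 lay among the WT and Het values and the other 2 KO libraries lay below them. Against the mean of WT and Het, Junb was -0.36 ± 0.19 (adjusted p = 0.471), and -0.65 without KO 1-3 (adjusted p = 0.101). Junb overlaps Prdx2 on the other strand, which had 64675 reads in all, and Jun overlaps the antisense gene Junos with 130. The library kit named in the labels does not mark strand, so reads of overlapping genes cannot be told apart where the counting let them through.

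Atf3 and Egr1, the other transcription factors, overlapped between the genotypes. Atf3 (chromosome 1, 191170296 to 191218039, minus strand) was at 7.99 and 9.93 CPM in WT, at 9.38, 10.2 and 10.5 CPM in Het, and at 7.71, 8.53 and 9.86 CPM in KO. It was -0.12 ± 0.13 in KO against the mean of WT and Het (adjusted p = 0.738). Egr1 (chromosome 18, 34859823 to 34864984, plus strand) was at 2.97 and 3.56 CPM in WT, at 3.56, 2.17 and 2.64 CPM in Het, and at 4.53, 2.28 and 2.58 CPM in KO, with KO 1-3 the highest of the 8. The same comparison gave 0.05 ± 0.26 for Egr1 (adjusted p = 0.959), and -0.31 without KO 1-3.

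Ier2 (chromosome 8, 84661331 to 84662854, minus strand) was the most abundant of the set per length of exon, at 53.8 to 68.7 FPKM over the libraries. In CPM it was at 88.1 and 105 CPM in WT, at 95.9, 97.9 and 98.4 CPM in Het, and at 82.1, 88.3 and 89.0 CPM in KO. All KO libraries were below all Het libraries, and WT 1-2 lay among the KO values. KO minus Het was -0.17 ± 0.07 (adjusted p = 0.421), which is 11.2% lower, and KO against the mean of WT and Het was -0.16 ± 0.06 (adjusted p = 0.341).

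Among the brakes, Zfp36 (chromosome 7, 28376784 to 28380253, minus strand) was at 4.49 and 3.27 CPM in WT, at 3.98, 4.04 and 4.02 CPM in Het, and at 4.65, 3.74 and 4.76 CPM in KO. Its 3 genotypes overlapped, and KO was 0.15 ± 0.17 from the mean of WT and Het (adjusted p = 0.754). Dusp1 (chromosome 17, 26505590 to 26562128, minus strand) was at 11.8 and 11.2 CPM in WT, at 16.2, 11.7 and 11.3 CPM in Het, and at 14.4, 15.8 and 11.8 CPM in KO. Het 1-1 was the highest library, at 1.02 times KO 2-2, and KO 1-3 followed. It was also the highest for Fos and Fosb, and by 1.08 times for Jun and 1.005 times for Junb. For Btg2, Egr1, Ier2, Atf3 and Zfp36 it ranked between 3 and 6. KO was 0.19 ± 0.15 from the mean of WT and Het (adjusted p = 0.630). The deposited Dusp1 model spans 56539 bases with 3311 exonic and overlaps Ergic1 on the other strand, which had 29453 reads.

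The KO and Het groups did not overlap for 3 of the 9 tested genes (Btg2, Jun and Ier2), against 16.8% of all genes tested. KO and WT did not overlap for 1, Btg2, against 21.7%, and KO and the 5 other libraries for 1, again Btg2, against 8.62%. In Het minus WT it held for 1, Fos, as given above.

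**Figure D3:**
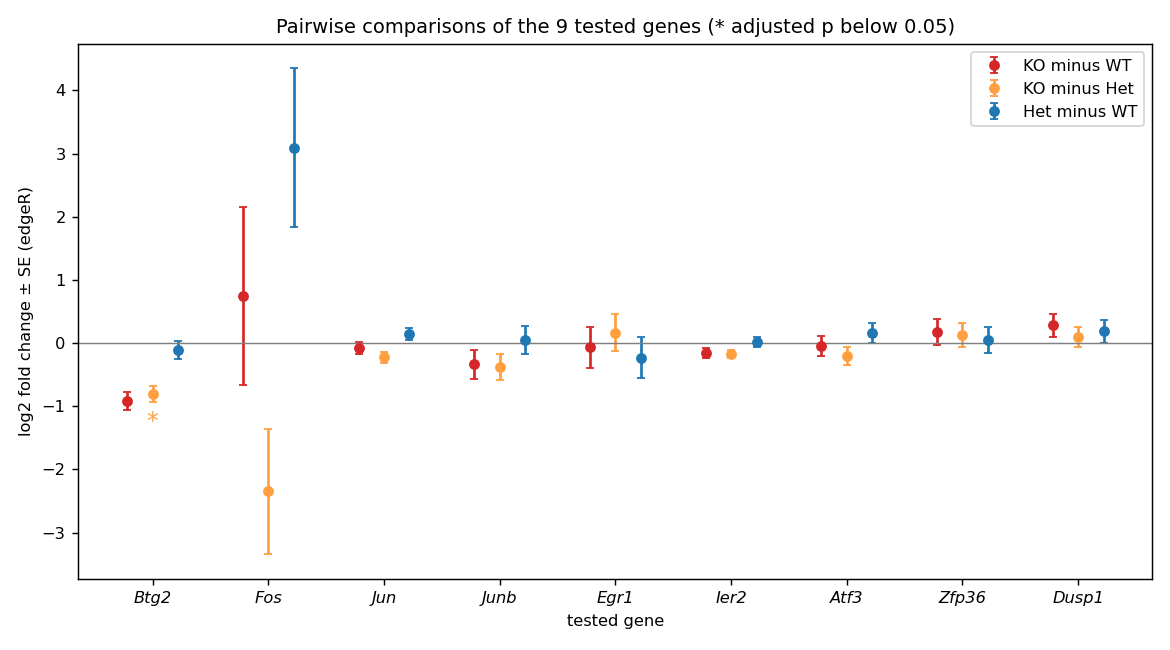
Log2 fold change ± SE of the 9 tested genes in the 3 pairwise comparisons, with genes on the x axis and a star at an adjusted p below 0.05. Only Btg2 in KO minus Het carries a star among these 27 values, and the bars of Fos are the widest.

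Per length of exon, Ier2 averaged 61.1 FPKM over the 8 libraries, and Jun and Btg2 followed at 16.4 FPKM each. Atf3 at 4.30, Dusp1 at 3.93 and Junb at 3.92 FPKM came next, then Zfp36 at 1.19, Fos at 0.872, Egr1 at 0.677 and Fosb at 0.0888 FPKM. Jun and Btg2 changed places between the means of WT and KO. Btg2 was at 20.5 ± 3.16 FPKM in WT and 10.9 ± 1.35 FPKM in KO (SD), and Jun at 16.1 ± 1.27 and 15.2 ± 1.46 FPKM. They also changed places between Het libraries. Btg2 was at 15.7 and Jun at 19.0 FPKM in Het 1-1, and at 20.8 and 17.6 FPKM in Het 2-4. The order of Atf3, Dusp1 and Junb was within their ranges over libraries. The genes were short: the median span was 4093 bases against 19796 for all tested genes, with 77.2% against 21.1% of it exonic, while the median level was 3.93 FPKM against 4.47.

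Libraries of the same genotype differed more in Btg2 and Fos than in most genes of like level. The SD of log2(CPM + 0.5) about the genotype means was 0.208 for Btg2, at the 93.7th percentile of the tested genes of like mean level (10 bins). It was 1.31 for Fos, at the 99.8th percentile, and 0.438 without Het 1-1. Junb had 0.287, and 0.140 without KO 1-3. At the low end, Zfp36 (0.168) was at the 14.0th percentile and Atf3 (0.151) at the 23.4th. Of the 9, 7 lay above the median of their bin. Without Het 1-1, Btg2 had 0.165. Within each genotype its lowest library was that of column set 1, so its spread cannot be told apart from column set.

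**Figure D4:**
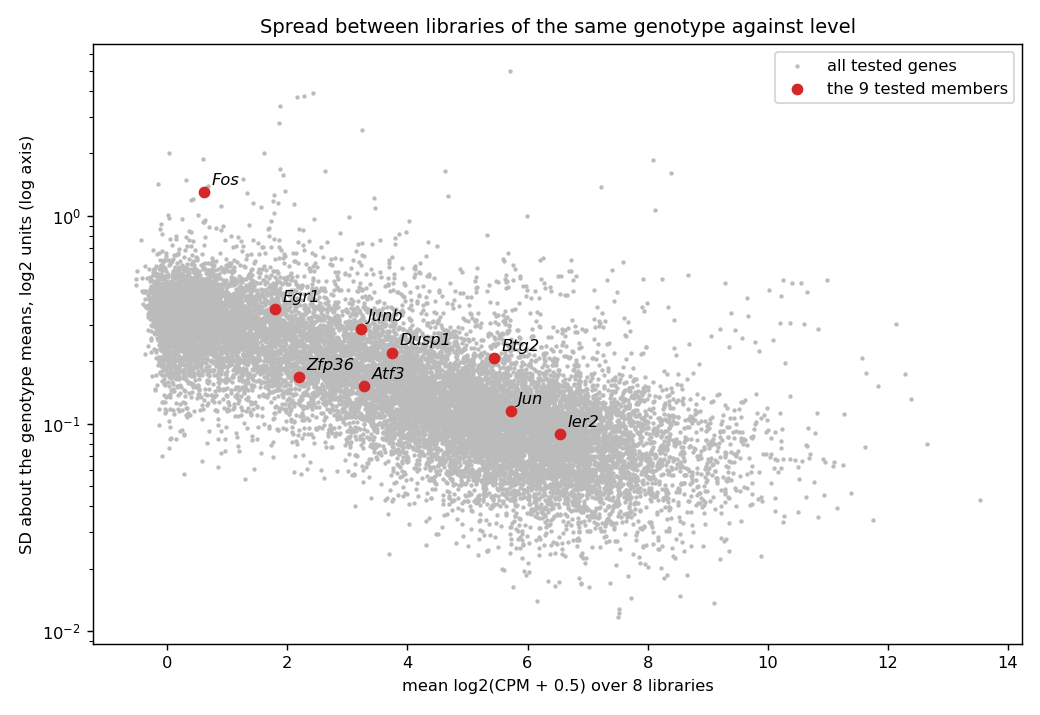
SD about the genotype means (log2 units, log axis) against mean log2(CPM + 0.5) for all tested genes in grey and the 9 tested genes of the set in red. Fos lies at the upper edge of the cloud and Btg2 above most genes of its level.

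Over the 8 libraries the r of Btg2 farthest from 0 was that with Ier2: Pearson's r was 0.850 (exact permutation p = 0.0105, adjusted over 9 relations p = 0.0949) and Spearman's rho 0.833 (exact permutation p = 0.0154, adjusted p = 0.138). Without KO 1-3 and KO 2-3, the libraries farthest from the Btg2 median, r was 0.753 (exact permutation p = 0.0931). Without the same 2 libraries Dusp1 had the r farthest from 0 (-0.903, exact permutation p = 0.0153, not adjusted), against -0.54 over all 8 (exact permutation p = 0.168). For the other 8 genes r ran from -0.62 (Zfp36) to 0.55 (Atf3), and 0 of the 9 relations passed the adjustment, with 1 at an unadjusted p below 0.05. These r values include the difference of Btg2 between genotypes. About the genotype means, with no test, r was farthest from 0 with Fosb (-0.821) and Fos (-0.767), both far higher in Het 1-1 than elsewhere. With Ier2 it was 0.680 and with Atf3 0.606. Within every genotype Btg2, Ier2 and Atf3 were each lowest in the library of column set 1. Their r about the genotype means therefore cannot be told apart from column set. As a description with no test, the genes outside the set whose pattern was most like that of Btg2, of 11121 genes with at least 5 CPM, were Aggf1 (r = 0.961), Scara5 (0.958), Maged2 (0.958), Sulf1 (0.956) and Pclaf (0.953). Scara5, which encodes a ferritin receptor, was at 4.81 to 7.55 CPM in WT and Het and at 2.88 to 4.03 CPM in KO. Aggf1 was at 91.2 to 96.2 CPM in WT and Het and at 84.9 to 90.8 CPM in KO. A high r is thus no sign of a difference as large as that of Btg2. To the mean of the other 8 tested genes of the set the most alike were Zfp27 (r = 0.975), Gas5 (0.944), Hdac6 (0.939), Gmeb2 (0.936) and Cyp39a1 (0.926), each highest in Het 1-1. That mean mostly follows Fos in Het 1-1, where log2(CPM + 0.5) lay 3.48 above the median for Fos and 0.44 for Dusp1, the next. A peak in Het 1-1 was thus built into the pattern and is not a trait shared by the 8.

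Of 40 other immediate early genes, 36 passed the filter and none was called in any of the 4 comparisons (edgeR), with 12 at an unadjusted p below 0.05 in KO against the mean of WT and Het, where 12.0% of all tested genes were. Without KO 1-3 that count was 3 of 36, against 8.64% of all genes. Their median was -0.10 with 21 of 36 below 0, and -0.09 with 26 below 0 without KO 1-3. The smallest p belonged to Zfp36l1, a relative of Zfp36, at 0.18 ± 0.05 (adjusted p = 0.198), and to Rhob, a small GTPase, at -0.32 ± 0.09 (adjusted p = 0.213). Ier3, an early gene of stress and survival signalling, reached 22.2 CPM in KO 1-3, against 0.745 to 1.69 CPM elsewhere. Maff, a small Maf transcription factor, was at 32.0 CPM in KO 1-3 and 12.5 to 16.8 CPM elsewhere.

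**Figure D5:**
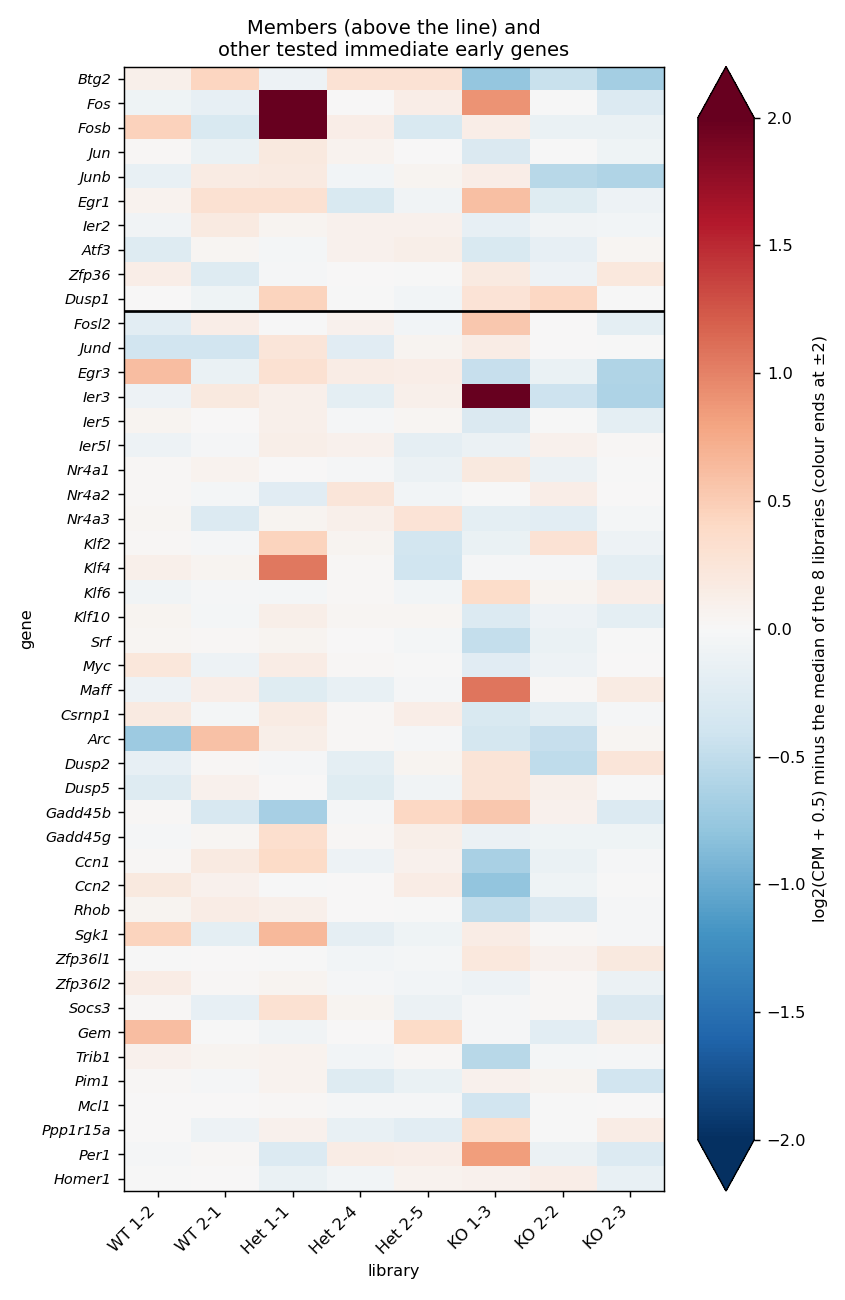
Log2(CPM + 0.5) minus the median of the 8 libraries for the 10 genes (above the line) and the other tested immediate early genes, with libraries on the x axis and colour ending at 2 in either direction. Het 1-1 stands out for Fos, Fosb and Klf4, KO 1-3 for Ier3 and Maff, and all 3 KO libraries for Btg2.

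None of the relatives of Btg2 in the BTG and TOB family was called. Btg1, which also restrains growth, was 0.18 ± 0.06 in KO against the mean of WT and Het (adjusted p = 0.305), Tob1 0.22 ± 0.10 (adjusted p = 0.409), Tob2 0.05 ± 0.07 (adjusted p = 0.848) and Btg3 -0.26 ± 0.30 (adjusted p = 0.768). Btg2 was the 1 of 5 tested that was called, in a list chosen with earlier results of these data known. None of the 10 subunit genes of the CCR4-NOT deadenylase was called (median -0.02). Of 14 other p53 target genes, 12 lay above 0 with a median of 0.12, and none was called. Of all tested genes 48.4% lay below 0 in this comparison. Without KO 1-3 the median was 0.11 with 11 above 0. The smallest p was that of Bbc3, an apoptosis gene, at 0.54 ± 0.16 (adjusted p = 0.245). Bbc3 was at 19.5 CPM in KO 1-3, at 12.5 and 13.4 CPM in the other KO libraries and at 9.14 to 12.4 CPM in WT and Het, and gave 0.32 without KO 1-3. With Btg2 counted, 3 of 5 BTG and TOB genes were at an unadjusted p below 0.05. So were 1 of 10 CCR4-NOT and 5 of 14 p53 target genes, against 12.0% of all tested genes. Without KO 1-3 these were 3, 0 and 2, against 8.64%. The part of p53 in the Btg2 difference was not tested.

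Genes upstream and beside the set were not called either, in KO against the mean of WT and Het, and in each of these 6 lists KO 1-3 had the highest or the lowest summed level of the 8 libraries. The 12 SRF, ternary complex and CREB factor genes had a median of -0.07, and -0.06 without KO 1-3, led by Elk3, a ternary complex factor, at -0.24 ± 0.08 (adjusted p = 0.269). Of 12 actin genes that SRF controls, 11 lay below 0 with a median of -0.21, against 10 and -0.15 without KO 1-3. Their sum was 4991 CPM in KO 1-3, 5515 and 5942 CPM in KO 2-2 and KO 2-3, and 5719 to 6167 CPM in WT and Het. Tpm1, a tropomyosin, was at -0.26 ± 0.07 (adjusted p = 0.196), and -0.19 without KO 1-3.

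The 9 ERK feedback genes had a median of 0.13 with 7 above 0, and 0.04 without KO 1-3. They summed to 940 CPM in KO 1-3, 846 and 804 CPM in KO 2-2 and KO 2-3, and 731 to 836 CPM in WT and Het. Etv5, a transcription factor induced by FGF signalling, was at 0.18 ± 0.05 (adjusted p = 0.232), and 0.15 without KO 1-3. The 10 heat shock genes had a median of -0.10, and -0.04 without KO 1-3. Their sum was lowest in KO 1-3 (5669 CPM), while KO 2-2 (6691 CPM) and KO 2-3 (6958 CPM) lay within the 6606 to 7297 CPM of WT and Het. Hspa1b, an inducible chaperone, was at 1.47 to 1.55 CPM in KO and 1.96 to 2.75 CPM in WT and Het (-0.60 ± 0.20, adjusted p = 0.296).

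The 10 integrated stress response genes had a median of 0.08, and 0.02 without KO 1-3. Vldlr, a lipoprotein receptor, was at 78.3 CPM in KO 1-3 and at 20.1 and 20.2 CPM in the other KO libraries, against 16.1 to 20.4 CPM in WT and Het. Its value of 1.14 ± 0.38 (adjusted p = 0.289) was 0.17 without KO 1-3. The 8 AU-rich element binding proteins had a median of 0.02, and 0.03 without KO 1-3. At an unadjusted p below 0.05 were 3 of the 12 factor genes, 7 of the 12 actin genes, 3 of 9 ERK feedback, 2 of 10 heat shock, 2 of 10 stress response and 1 of 8 binding protein genes, against 12.0% of all tested genes. Without KO 1-3 these were 1, 4, 2, 3, 0 and 1, against 8.64%.

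Btg2 is known to mark neural precursors as they turn to making neurons, so neurogenesis genes were read beside it. None of 12 was called (median -0.19, and -0.07 over the 11 still tested without KO 1-3). Of the 12, 4 were at an unadjusted p below 0.05, against 12.0% of all tested genes. Without KO 1-3 it was 4 of 11, against 8.64%. Isl1, a factor of motor neurons but not limited to them, missed the threshold at -0.68 ± 0.14 (adjusted p = 0.0801), and Hes5, a Notch target, was at 0.63 ± 0.14 (adjusted p = 0.0985). Their sum was 265 to 274 CPM in WT, 271 to 281 CPM in Het and 251 to 302 CPM in KO. Of the 12 posterior trunk markers, Hoxb9 rose (0.48 ± 0.07, adjusted p = 0.0159) and Tbx4 fell (-0.93 ± 0.16, adjusted p = 0.0395). Without KO 1-3 Hoxb9 was still called (0.41, adjusted p = 0.0111) and Tbx4 was not (-0.93, adjusted p = 0.0601). Isl1 and Tbx4 were both highest in Het 1-1 (38.8 and 45.5 CPM) and next in WT 1-2 (31.2 and 39.1 CPM). Which cells carry Isl1 here was not tested.

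Markers of other cell types are given beside Btg2, and their part in its difference was not tested. Red blood cell markers summed to 2879 to 5825 CPM in WT, 2824 to 4597 CPM in Het and 4034 to 6425 CPM in KO, and all 8 lay above 0 without a call (median 0.26). Endothelial markers summed to 444 to 456, 432 to 480 and 395 to 493 CPM in the same order, with none of 8 called. Yolk sac endoderm markers summed to 16.0 to 38.4 CPM over the libraries. Macrophage markers summed to 0.817 to 1.58 CPM, 1 of 8 passed the filter and C1qa had no read in any library. Het 1-1, the library highest in Fos, had 16.0 CPM of yolk sac markers, the lowest of the 8, and 480 CPM of endothelial markers, the second highest.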

How the data were processed

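Poly(A) RNA of 8 libraries was measured. The authors deposited 1 table of raw counts per gene and library, with exonic gene sizes. Its 8 columns of FPKM were not used. Tools named in the submitters' processing notes are HISAT2 2.0.1, HTSeq 0.6.1 and cutadapt 1.9.1, with GRCm38 and mm10 as builds. Annotation release and strand setting: not given in the sources used here. A column name holds a genotype and numbers matching no labelled sample number, so it was assigned to its genotype only.

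The set's members and the lists were chosen with earlier results of these data known. Counts were tested with edgeR 4.0.16 (R 4.3.3): TMM, default expression filter (16262 genes kept, minimum count 10), quasi-likelihood test in 1 fit of all 8 libraries, two-sided, Benjamini-Hochberg adjustment. FPKM, computed here from counts, column totals and exonic sizes, was used between genes and CPM within a gene. Named genes were the members, called genes of each other list or else the 2 with the smallest p, the 5 most like Btg2 and the 5 most like the mean of the other tested members, plus Prtg. Relations used exact permutation tests (SciPy 1.17.1). The scripts were tested on simulated data. Alternatives were DESeq2 1.42.0, other scalings, filters, covariates and leaving out libraries; the lists without KO 1-3 were added after seeing the data. Promoters are from RefSeq (GRCm38.p6) and 3′ UTRs from the GENCODE M21 annotation. Libraries of 1 genotype differed by 4.55 to 24.6 times counting variance, so none were merged.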

Additional observations from a re-analysis of the deposited data

Results flagged for a closer look

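Among the 5 WT and Het libraries, 3 of the 10 genes had a highest library whose gap to the next, over the whole range, passed Dixon's 95% critical value of 0.710 for 5 samples. All 3 were in Het 1-1. Fos was at 11.6 CPM there, with a gap of 0.980 of the range. Fosb was at 3.62 CPM, with a gap of 0.903. Dusp1 was at 16.2 CPM, with a gap of 0.865, and 2 of the KO libraries were at 14.4 and 15.8 CPM. Chance flags about 1 in 20 groups.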

How the results depend on the processing

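Btg2 was lower in KO in every fit run. In KO minus WT it passed the threshold under DESeq2 (-0.92, adjusted p = 1.64e-06), with no filter on low counts (-0.92, 1.30e-07), with column set as a term (-0.96, 0.00249), with the Y-linked level as a covariate (-0.95, 0.0162) and with robust moderation (-0.91, 0.0394), the last chosen after seeing the data. Under each of these 5, 1 gene of the set was called, with 90, 205, 19, 9 and 21 called among all genes. Column set and Y-linked level split the libraries alike except for Het 2-4, so the fits with these terms are not independent of each other. KO minus Het fell past the threshold on the compared groups only (-0.81, 0.0689), where 0 of the set and 10 of all genes were called. With no filter 3 of the set, Btg2, Fos and Fosb, and 437 of all genes were called. That fit tested all but 26750 of the 55573 genes. Fosb had 61 reads in Het 1-1 and at most 6 elsewhere. Leaving out libraries gave -1.07 to -0.75 in KO minus WT, -0.93 to -0.74 in KO minus Het and -0.96 to -0.78 against the mean of WT and Het, with 0, 0 and 0 to 1 genes of the set called. Among all genes those fits called 1 to 28, 2 to 49 and 9 to 62. The cause of these changes was not tested.

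Genes called in KO minus WT numbered 6, against 90 under DESeq2, 205 with no filter, 1 on the compared groups, 19 with column set, 21 with robust moderation and 1 to 28 without a library. In KO minus Het 31 became 155, 437, 10, 47, 52 and 2 to 49 in that order. In Het minus WT 0 became 1 under DESeq2, 11 with no filter and 0 to 1 without a library. Against the mean of WT and Het 54 became 204, 514, 88 with robust moderation and 9 to 62 without a library. With no filter, 256 of the 437 KO minus Het calls were higher and 181 lower, against 10 and 21.

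Directions that turned when 1 library was left out were Btg2 (-0.26 to 0.060), Junb (-0.11 to 0.22), Zfp36 (-0.16 to 0.29) and Ier2 (-0.10 to 0.14, and -0.0018 with column set) in Het minus WT. They were Egr1 (-0.43 to 0.12), Atf3 (-0.19 to 0.12), Zfp36 (-0.038 to 0.42) and Fos (-0.012 to 1.08) in KO minus WT, Egr1 (-0.20 to 0.38) and Fos (-3.10 to 0.39) in KO minus Het, and Egr1 (-0.31 to 0.23) and Fos (-1.56 to 0.57) against the mean. Fos in KO minus Het was called with no filter (-2.35, adjusted p = 0.00749). Pearson's r of Btg2 ran from -0.14 to 0.11 with Fosb, from -0.44 to 0.28 with Egr1 and from 0.768 to 0.950 with Ier2, past the threshold without WT 1-2 (adjusted p = 0.00536). DESeq2 gave Fos no adjusted p. No paired analysis was possible because the columns carry no sample number of the labels.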
